A study of Mus musculus with 3 samples.

Results

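The genes described are 10 members of the insulin-like growth factor (IGF) axis, chosen by name: the ligands Igf1 and Igf2, the binding proteins Igfbp3, Igfbp4, Igfbp5, Igfbp6 and Igfbp7, the pappalysin proteases Pappa and Pappa2, and the stanniocalcin Stc1. All 10 were listed in each library and were followed among the 21446 genes that the libraries shared. The cells carried a Pthrp-mCherry knock-in reporter and were sorted for mCherry from the mandibular molars of mice at P15, P25 and 8 weeks. Cells from several mice were pooled, and each time point gave 1 library of 10x Chromium 3′ single-cell sequencing, so no time point had a replicate. The reporter allele was carried in all groups and no group was without it. The reporter selects cells that express Pthrp and marks neither IGF-producing cells nor a single cell type.

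IGF1 and IGF2 are secreted growth factors that act through the IGF1 receptor, while the IGF2 receptor takes up IGF2 and clears it. Outside the cell most ligand is held by IGF binding proteins, which store it in the matrix and keep it from the receptor. The pappalysins are secreted metalloproteases that cut some of these binding proteins and so release ligand: PAPP-A acts on IGFBP4 and IGFBP5, and PAPP-A2 on IGFBP3 and IGFBP5. Stanniocalcins bind the pappalysins and inhibit them. In bone and in the periodontal ligament, the axis is known for its part in the growth and matrix production of mesenchymal cells.

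The question was which mesenchymal cells held the transcripts of ligand, binding proteins and protease system, and whether this differed by time point. Cells were divided by the unique molecular identifiers (UMIs) of single genes, here called gates. Ptprc (CD45, on blood cells), Epcam (on epithelium) and Pecam1 with Cdh5 (on endothelium) first set aside non-mesenchymal cells, which left 24416 of 27089 cells. The mesenchymal gates were Rgs5 (known from pericytes), Ifitm5 and Ibsp (osteoblast and cementoblast genes), Dio2 (a deiodinase that activates thyroid hormone), Col13a1 (a transmembrane collagen), Hand2 (a transcription factor of jaw mesenchyme), and Ogn, Thbs4 and Pcp4, which the study used for its precursor classes. A cell passed a gate with at least 2 UMIs of the gene, a level of at least 10% of the 99th percentile over all mesenchymal cells, and more UMIs than the blood cells of its library would give, and a cell that passed several went to the first in the order given above. This applied to 8825 cells. By this order a cell that passed both Ibsp and Hand2 went to Ibsp, so the Hand2 gate holds those Hand2-passing cells that did not pass Ibsp or an earlier gate. Cells of no gate numbered 3611, 2056 and 1056 in the libraries of P15, P25 and 8 weeks, the order kept for every series of 3 values. The Ogn gate was the largest, with 2172 (P15), 2087 (P25) and 1347 (8 weeks) cells. The smallest over all libraries was Col13a1, with 444, 55 and 16 cells, followed by Rgs5, with 258, 156 and 300, and Dio2, with 406, 504 and 92. Groups of under 20 cells, which at 8 weeks were the Col13a1, Ptprc and endothelial cells, entered no comparison. The 19 Ptprc-gated cells at 8 weeks still served as the blood cells of the gating rule. They held 0 UMIs of Rgs5, Ifitm5, Dio2, Col13a1 and Hand2, so this condition excluded no cell from those gates at 8 weeks.

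The libraries held 46234378 to 188157997 UMIs in 5192 to 12926 cells, with a median of 8712.5 UMIs per cell at 8 weeks, 14253.5 at P15 and 15834 at P25. The P25 gene list was longer than the others and its file header names another Cell Ranger version than the labels give for all libraries, so the P25 age and any difference in processing cannot be told apart. From 13 to 26 cell barcodes were shared by a pair of libraries and none by all 3. Levels are UMIs summed over the cells of a gate, given per 1000000 UMIs of that sum (CPM), and intervals are exact 95% Poisson intervals, which cover counting error only. Markers fixed for the gates were over 2-fold above the other mesenchymal cells in nearly all cases for Ifitm5 (5 of 5 in each library), Ibsp (5, 4 and 4 of 5), Ogn (4 of 4), Hand2 (3, 4 and 4 of 4) and Dio2 (2 of 2), but in 4, 2 and 2 of 4 for Pcp4 and in 2, 0 and 1 of 3 for Thbs4. In the Rgs5 gate all 7 pericyte and smooth muscle markers passed this fold at P15, but 3 at P25 and 1 at 8 weeks, so it is called here by its gate gene only. The study lists the markers of the Ifitm5, Ibsp, Ogn, Hand2, Thbs4 and Pcp4 gates for its classes, from data that include these libraries. Those of Dio2 were paired with it in the name of a cell class beforehand. These markers thus describe the gates and are no independent check of them. Epithelial markers were present in cells of no gate (5 markers summed to 4087, 4319 and 1576 CPM, and 7 immune markers to 1210, 117 and 270 CPM) and in Dio2-gated cells at P15 (2105 CPM, against 291 at P25 and 33.3 at 8 weeks). With the cells of no gate left out of the fit, all 24 calls of members given below were kept. The part of these markers in the Dio2 gate and in the levels and time differences below was not tested.

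Each gate was compared with the mean of the other mesenchymal groups over the 3 libraries, which stood as replicates of different age (quasi-likelihood test in edgeR, p-values adjusted after Benjamini and Hochberg over 13562 genes). Of 90 pairs of member and gate, 24 passed an adjusted p of 0.05. In Ogn-gated cells 5 of the 10 members rose, against 3.72% of all genes tested, and the median log2 fold change of the 10 was 1.19. Among the 5 were Igf1, Igfbp4 and Igfbp3, which had been tied to Ogn before the comparison, as given below. This count is therefore not independent of the choice of members and gates. In Dio2-gated cells 5 rose, against 13.3% of all genes, with a median of 1.21. In Rgs5-gated cells 3 rose (3.08% of all genes), and in Col13a1-gated cells 1 rose (1.55%). The latter was Pappa2, which had been tied to Col13a1 beforehand, so it is not independent of that choice either. In Ifitm5-gated cells 7 fell, against 6.86% of all genes, with a median of -1.94, and in Ibsp-gated cells 3 fell (2.18%), with a median of -1.36. None of the 10 passed in Hand2-gated, Thbs4-gated or Pcp4-gated cells, where 7.31%, 0.0516% and 8.51% of all genes passed. At an unadjusted p under 0.05, these gates held 3, 2 and 0 members, with 2907, 830 and 3125 of the 13562 genes. DESeq2 called 1, 0 and 0 members, with 1328, 22 and 1626 genes in all. With library as a block 3, 2 and 1 members passed, with 2730, 70 and 2956 genes in all. With the order of gates reversed 0, 0 and 3 passed, with 949, 135 and 1574 genes. Without P15, 4, 1 and 2 passed, with 1384, 75 and 974 genes. Thbs4 and Pcp4 came last in the order. Of 2553, 1498 and 1400 cells that passed Thbs4, 812, 366 and 394 were assigned to it. For Pcp4 these were 1779, 518 and 351 of 3218, 1871 and 1474. The median log2 fold change of all genes lay between -0.03 and 0.01 in the contrasts of the main fit. Each library held pooled cells of another age, and nothing in the labels separates animals within them. The p-values rest on a spread between libraries that was estimated over all mesenchymal groups together, not on that of 1 gate. The sums were fitted as independent, although sums of the same library deviated together. Without the P25 library 3 of the 24 pairs passed, without the 8-week library 10 and without the P15 library 23, where 39 pairs passed in all. Each of the 24 kept its direction in these fits. Calls over all genes fell as well without P25 or without 8 weeks. In the Ogn gate 671 became 13 without P25, 230 without 8 weeks and 879 without P15. In the same order, 2312 became 493, 1426 and 2227 in the Ifitm5 gate, and 2806 became 972, 1913 and 2545 in the Dio2 gate. The loss of member calls is thus not particular to the members.

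**Figure D1:**
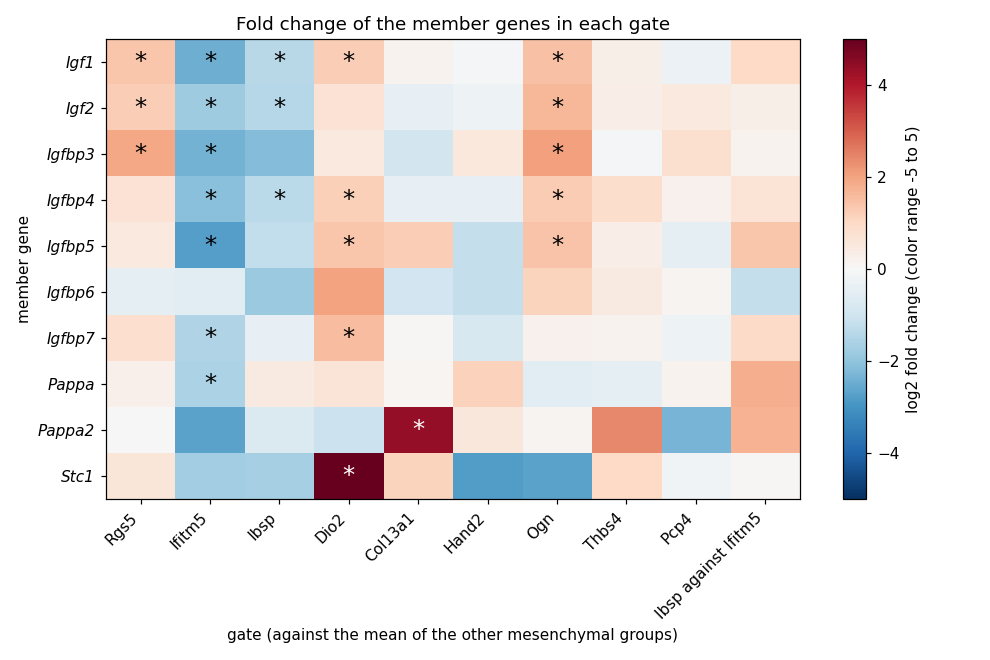
Log2 fold change (color) of the 10 member genes (rows) in each gate against the mean of the other mesenchymal groups, and in Ibsp-gated against Ifitm5-gated cells (last column). Asterisks mark an adjusted p under 0.05. The Ifitm5 column holds 7 lower calls, the Ogn and Dio2 columns 5 higher calls each, and Stc1 in the Dio2 column has the highest value of the plot, 5.20.

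Igf1 (ENSMUSG00000020053, chromosome 10, 87858265 to 87937042 of GRCm38, plus strand) encodes the ligand that binds the IGF1 receptor most tightly. In Ogn-gated cells it stood at 1256 CPM (interval 1245 to 1268) in the P15 library, 987 CPM (977 to 997) in that of P25 and 979 CPM (962 to 996) in that of 8 weeks. Levels of 1071, 1121 and 1039 CPM were found in Rgs5-gated cells and of 766, 955 and 1264 CPM in Dio2-gated cells. These 3 gates lay above all 6 others in every library. Thbs4-gated cells followed with 499, 431 and 598 CPM, and Hand2-gated cells with 655, 358 and 228 CPM. Ibsp-gated cells held 285, 143 and 110 CPM, and Ifitm5-gated cells 82.3, 68.8 and 89.1 CPM, the lowest gate in each library. By the mean over libraries, the order ran from Rgs5 (1077 ± 41.0 CPM, SD, n = 3), Ogn (1074 ± 158) and Dio2 (995 ± 251) to Ibsp (180 ± 92.8) and Ifitm5 (80.1 ± 10.3). The ranges of the first 3 overlapped, and a gap without overlap followed Dio2 and again preceded Ifitm5.

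Igf1 rose in Ogn-gated cells by 1.45 ± 0.25 on the log2 scale (SE, adjusted p = 0.0014) and in Dio2-gated cells by 1.24 ± 0.26 (adjusted p = 0.0013). It fell by 2.46 ± 0.35 in Ifitm5-gated cells (adjusted p = 3.6e-05) and by 1.37 ± 0.32 in Ibsp-gated cells (adjusted p = 0.011). The study named Igf1 and Igfbp4 among the markers of its Ogn-expressing precursor class from these same libraries, so their rise in the Ogn gate is not independent of that choice. Ogn-gated cells were 19.4%, 25.7% and 26.4% of the mesenchymal cells and held 53.1%, 54.0% and 51.5% of the mesenchymal Igf1 UMIs. With each cell thinned to 3000 UMIs, an Igf1 UMI was found in 80.7% (79.0% to 82.4%, exact binomial), 76.6% and 78.1% of Ogn-gated cells. The share was 30.8%, 14.9% and 16.2% in Ibsp-gated cells and 10.7%, 10.1% and 14.6% in Ifitm5-gated cells. Ptprc-gated cells, set beforehand as the background for shares, had 20.4% at P15 and 55.0% at P25, with medians of 11059 and 16009 UMIs. Their Igf1 and Igf2 summed to 283 and 505 CPM, against 138 and 110 CPM in Ifitm5-gated cells, so for Igf1 they were not a background free of ligand. Whether Ptprc-gated cells express Igf1 was not tested. Epcam-gated cells had shares of 9.71%, 5.73% and 4.55% (median depths of 21581.5, 37061 and 22461.5 UMIs before thinning, against 16981.5, 16254 and 9397 in Ogn-gated cells). The Ifitm5-gated share lay below that of Ptprc-gated cells at P15 and P25. It lay near that of epithelial cells at P15 and above it at P25 and 8 weeks. Without thinning, the shares in Ogn-gated cells were 95.4%, 94.3% and 90.3%.

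Igf2 (ENSMUSG00000048583, chromosome 7, 142650766 to 142666816, minus strand), the ligand known from fetal growth, ran through the gates in a like order. It stood at 529, 517 and 456 CPM in Ogn-gated cells at P15, P25 and 8 weeks, and at 209, 545 and 411 CPM in Rgs5-gated cells. Dio2-gated cells held 298, 309 and 266 CPM. The lowest levels were again those of Ibsp-gated cells (81.0, 69.0 and 60.8 CPM) and Ifitm5-gated cells (56.0, 41.3 and 53.9 CPM), the lowest gates of at least 20 cells in each library, whose ranges did not overlap each other. Hand2-gated cells were at 299 CPM at P15 and at 87.0 and 80.9 CPM later. Igf2 rose in Ogn-gated cells by 1.67 ± 0.25 (SE, log2, adjusted p = 0.00045), and it fell by 1.78 ± 0.34 in Ifitm5-gated cells (adjusted p = 0.00072) and by 1.44 ± 0.33 in Ibsp-gated cells (adjusted p = 0.0084). Its value in Dio2-gated cells, 0.71 ± 0.27, missed the threshold (adjusted p = 0.069). Both ligands had a UMI in 58.2%, 51.5% and 45% of Ogn-gated cells thinned to 3000 UMIs, where Igf2 had one in 69.2%, 63.8% and 55.2%. Without the P25 library the Ogn calls of both ligands were lost (adjusted p = 0.31 for Igf1 and 0.19 for Igf2), as were the Ibsp calls (0.41 and 0.25), which were also lost without the 8-week library (0.17 for each).

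The ligands and the binding proteins Igfbp3 and Igfbp4 moved together in the Ogn and Ifitm5 gates, and the 250 bases before a RefSeq start site of each (GRCm38.p6) are printed 5′ to 3′ on the strand of the gene. Igf2 has 4 starts in the table, of which the one farthest upstream is given. Motifs were searched on both strands and are in capitals. The core bound by RUNX factors was spelled TGTGGT. The core of TCF/LEF sites was spelled CTTTGA. The TATA box was spelled TATAAA. The windows are chr10:87860861-87861110 (plus) for Igf1, chr7:142666817-142667066 (minus) for Igf2, chr11:7213924-7214173 (minus) for Igfbp3 and chr11:99040994-99041243 (plus) for Igfbp4.
Igf1: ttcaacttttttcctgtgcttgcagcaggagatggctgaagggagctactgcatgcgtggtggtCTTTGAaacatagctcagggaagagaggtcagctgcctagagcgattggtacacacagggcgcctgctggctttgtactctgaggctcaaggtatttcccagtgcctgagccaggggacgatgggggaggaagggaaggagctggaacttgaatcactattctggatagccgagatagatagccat
Igf2: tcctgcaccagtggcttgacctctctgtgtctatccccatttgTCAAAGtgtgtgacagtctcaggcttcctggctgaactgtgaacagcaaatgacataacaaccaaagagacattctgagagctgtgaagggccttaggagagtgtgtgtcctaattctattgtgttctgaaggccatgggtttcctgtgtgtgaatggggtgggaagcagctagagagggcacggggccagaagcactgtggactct
Igfbp3: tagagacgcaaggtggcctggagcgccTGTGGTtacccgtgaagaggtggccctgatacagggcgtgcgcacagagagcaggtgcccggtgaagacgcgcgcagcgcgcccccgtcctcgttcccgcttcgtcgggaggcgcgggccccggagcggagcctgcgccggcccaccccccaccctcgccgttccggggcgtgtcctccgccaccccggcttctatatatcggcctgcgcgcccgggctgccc
Igfbp4: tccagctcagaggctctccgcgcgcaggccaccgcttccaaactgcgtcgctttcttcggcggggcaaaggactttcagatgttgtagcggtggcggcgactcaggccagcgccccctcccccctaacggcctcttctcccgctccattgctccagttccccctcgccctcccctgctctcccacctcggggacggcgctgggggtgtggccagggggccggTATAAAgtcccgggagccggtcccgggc
The TCF/LEF core stood in the windows of Igf1 and, as its complement, of Igf2, the RUNX core in that of Igfbp3 and the TATA box in that of Igfbp4. The other windows of Igf2 held none of these motifs. Nor did that of Igfbp5, which was called in the same directions in both gates and is not printed. Over all 32851 promoters of the table, windows of the same length held these motifs in 13.8%, 14.05% and 12.4% of cases. Of the 10 members, 8 matched the table with 11 start sites, and 5 of these windows held at least 1 of the motifs. The percentages above are for single motifs. The share of all promoters with at least 1 of the motifs was not computed, so the count of 5 has no background. These matches describe the sequence only.

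Igfbp4 (ENSMUSG00000017493, chromosome 11, 99041244 to 99054392, plus strand), the binding protein that PAPP-A cuts, was low in Ifitm5-gated and Ibsp-gated cells and higher in all other gates. It stood at 2167, 2159 and 2397 CPM in Ogn-gated cells (2241 ± 135, SD, n = 3), at 1485, 2981 and 2115 CPM in Dio2-gated cells and at 1338, 1731 and 2058 CPM in Thbs4-gated cells. Ibsp-gated cells held 525, 410 and 349 CPM, and Ifitm5-gated cells 256, 229 and 214 CPM, below every other gate in each library. At P15 Col13a1-gated cells, at 530 CPM, lay close to the 525 CPM of Ibsp-gated cells. Igfbp4 rose in Ogn-gated cells by 1.26 ± 0.21 (SE, log2, adjusted p = 0.00094) and in Dio2-gated cells by 1.18 ± 0.21 (adjusted p = 0.00032). It fell by 2.11 ± 0.28 in Ifitm5-gated cells (adjusted p = 1.5e-05) and by 1.35 ± 0.26 in Ibsp-gated cells (adjusted p = 0.0025). The Ifitm5 call passed under all 19 alternatives tried, with adjusted p from 6.3e-17 to 0.0080. Its values in Rgs5-gated and Thbs4-gated cells, 0.71 and 0.88, missed the threshold and passed with library as a block (adjusted p = 0.031 and 0.033) and without the P15 library (0.0054 and 0.016). In Ogn-gated cells thinned to 3000 UMIs, Igf1 and Igfbp4 were both detected in 78.0%, 72.0% and 71.4% of cells. Igf1 was detected in 80.7%, 76.6% and 78.1% of these cells and Igfbp4 in 94.3%, 92.8% and 89.6%.

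Igfbp3 (ENSMUSG00000020427, chromosome 11, 7206086 to 7213923, minus strand), which carries most ligand in blood plasma, was highest in Ogn-gated cells at P25 (2663 CPM, 2647 to 2680) and in Rgs5-gated cells at 8 weeks (2620 CPM, 2564 to 2677). Its level in Ogn-gated cells was 1012 CPM at P15 and 2184 CPM at 8 weeks, and that in Rgs5-gated cells 468 CPM at P15 and 2573 CPM at P25. At P15 the highest gate was instead Hand2 (1170 CPM), which held 626 CPM at P25 and 561 CPM at 8 weeks. Ibsp-gated cells had 90.5, 196 and 127 CPM and Ifitm5-gated cells 49.2, 143 and 119 CPM. Igfbp3 rose in Ogn-gated cells by 2.05 ± 0.47 (SE, log2, adjusted p = 0.012) and fell by 2.37 ± 0.69 in Ifitm5-gated cells (adjusted p = 0.020). As Igfbp3 and Ogn were paired in the name of a cell class before these comparisons, its rise there is not independent of that choice. In Ibsp-gated cells its value of -2.17 ± 0.68 missed the threshold (adjusted p = 0.061) but passed with library as a block (adjusted p = 0.0051). Both calls were lost without the P25 library (adjusted p = 0.32 and 0.21) and without the 8-week library (0.19 and 0.18).

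Igfbp5 (ENSMUSG00000026185, chromosome 1, 72857932 to 72874884, minus strand) binds matrix and mineral and is cut by both pappalysins. It stood at 1798, 1251 and 3368 CPM in Dio2-gated cells and at 1419, 1487 and 3112 CPM in Ogn-gated cells. Col13a1-gated cells had the highest level at P15, 2290 CPM (2257 to 2323), and 1058 CPM at P25. Ibsp-gated cells held 766 CPM at P15 but 163 and 201 CPM later, while Ifitm5-gated cells held 184, 100.0 and 101 CPM. Igfbp5 rose in Ogn-gated cells by 1.42 ± 0.41 (SE, log2, adjusted p = 0.044) and in Dio2-gated cells by 1.40 ± 0.41 (adjusted p = 0.017), and it fell by 2.75 ± 0.58 in Ifitm5-gated cells (adjusted p = 0.0020). Of 19 alternatives, the Ogn call passed under 13 (adjusted p up to 0.55), the Dio2 call under 15 (up to 0.30) and the Ifitm5 call under 18 (up to 0.083). Its value in Col13a1-gated cells was 1.23 ± 0.49 (adjusted p = 0.26).

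Igfbp7 (ENSMUSG00000036256, chromosome 5, 77349240 to 77408041, minus strand) binds IGF weakly and is known from vessel walls. Endothelial cells had 5213 CPM at P15 and 5591 CPM at P25, above every mesenchymal gate. Within the mesenchyme it was highest in Dio2-gated cells, at 1198, 2636 and 3515 CPM, except at P15, when Rgs5-gated cells held 2491 CPM (2437 to 2546). Rgs5-gated cells then had 1077 CPM at P25 and 1275 CPM at 8 weeks, and Ifitm5-gated cells 200.4, 239 and 460.4 CPM. Igfbp7 rose in Dio2-gated cells by 1.54 ± 0.37 (SE, log2, adjusted p = 0.0048) and fell by 1.49 ± 0.49 in Ifitm5-gated cells (adjusted p = 0.038). In Rgs5-gated cells it gave 0.86 ± 0.39 (adjusted p = 0.32, or 0.012 with library as a block). The 4 endothelial markers summed to no more than 13.7 CPM in any mesenchymal gate or in cells of no gate, against 2256 CPM at P15 and 1732 CPM at P25 in the endothelial cells. Pecam1 and Cdh5 are among these markers and had been used to set endothelial cells aside, so the low sums follow in part from the gating. The part of endothelial transcripts in the Igfbp7 levels was not tested.

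Igfbp6 (ENSMUSG00000023046, chromosome 15, 102144362 to 102149511, plus strand), which prefers IGF2 over IGF1, stood apart by library. In Dio2-gated cells it was at 75.9 CPM in the P15, 313 CPM in the P25 and 1111 CPM in the 8-week library, which made this the highest mesenchymal gate at each time. Ogn-gated cells held 35.9, 190 and 560 CPM and Ibsp-gated cells 8.57, 55.9 and 54.1 CPM. Without a block no gate passed, with a value of 2.02 ± 0.88 in Dio2-gated cells (SE, log2, adjusted p = 0.11). With library as a block, which removes the difference between the libraries, Igfbp6 rose in Dio2-gated cells by 1.91 (adjusted p = 3.3e-06) and in Ogn-gated cells by 0.97 (adjusted p = 0.0090), and it fell by 1.56 in Ibsp-gated cells (adjusted p = 0.0017) and by 0.76 in Ifitm5-gated cells (adjusted p = 0.049). Endothelial cells were above all gates, with 705 CPM at P15 and 2784 CPM at P25.

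**Figure D2:**
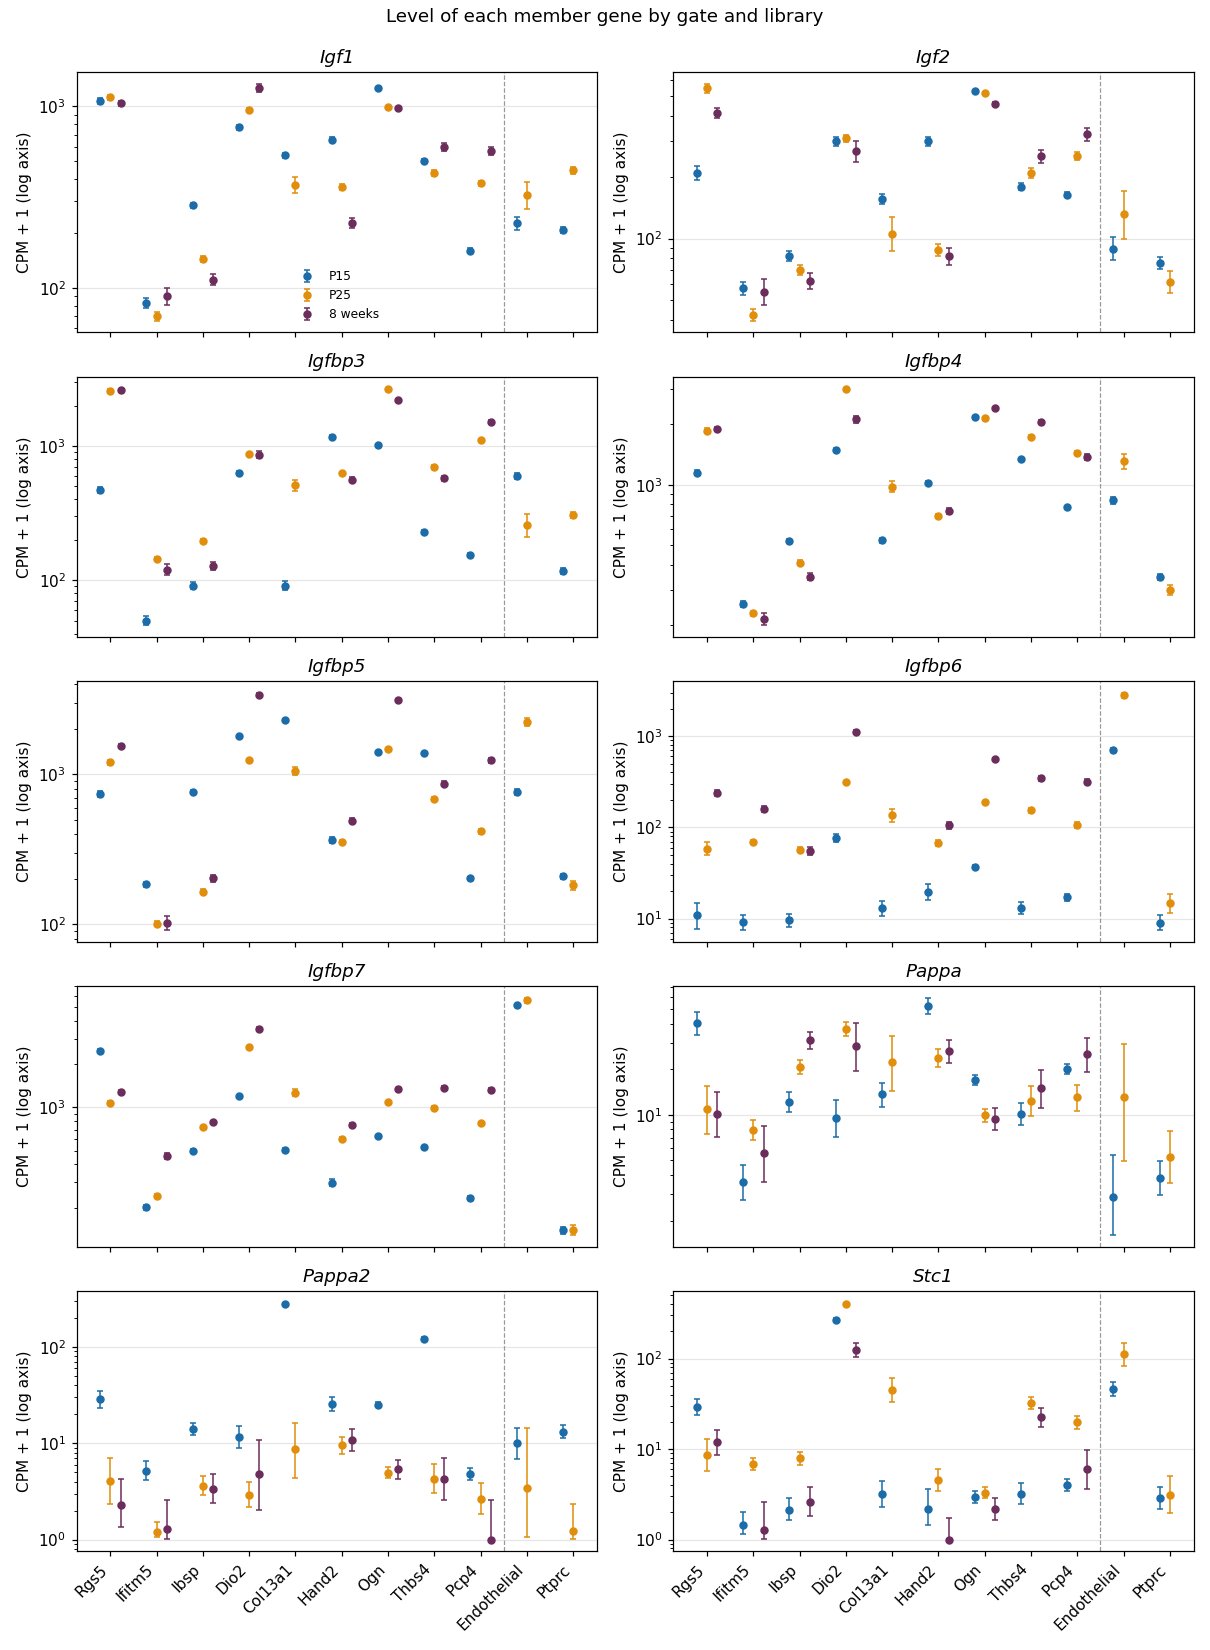
Level of each member gene (CPM + 1, log axis) in the 9 mesenchymal gates and, right of the dashed line, in endothelial and Ptprc-gated cells, for the libraries of P15 (blue), P25 (orange) and 8 weeks (purple). Bars are exact 95% Poisson intervals and groups of under 20 cells are left out. Stc1 is highest in Dio2-gated cells, Pappa2 in Col13a1-gated cells at P15 (277 CPM), and Igfbp6 is lowest at P15 in every gate.

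UMIs mark transcript ends and do not grow with transcript length, so the 5 binding proteins were also added up. Among the mesenchymal gates, their sum was highest in Dio2-gated cells at P25 and 8 weeks (8046 and 10970 CPM) and in Ogn-gated cells at P15 (5265 CPM, against 5190 CPM in Dio2-gated cells). Endothelial cells were above these, with 8106 CPM at P15 and 12183 CPM at P25. Ifitm5-gated cells held 697, 780 and 1052 CPM and Ibsp-gated cells 1889, 1552 and 1520 CPM. Ptprc-gated cells held 818 CPM at P15 and 941 CPM at P25, above the Ifitm5 gate in both libraries. How much of the sum in Ifitm5-gated cells, or of its ratio to ligand below, was background was not tested. For each UMI of Igf1 or Igf2, 2.95, 5.05 and 6.69 binding protein UMIs were counted in Ogn-gated cells and 5.04, 7.08 and 7.36 in Ifitm5-gated cells. Over all mesenchymal cells this ratio was 3.69, 5.78 and 7.09. Over these cells the ligands summed to 837, 764 and 803 CPM and the binding proteins to 3087, 4416 and 5696 CPM. Makeup differed between gates. Igfbp5 gave 66.9% of the binding protein UMIs of Col13a1-gated cells at P15, Igfbp4 gave 56.0% of those of Pcp4-gated cells at P15, Igfbp7 gave 51.9% of those of Ibsp-gated cells at 8 weeks, and Igfbp3 gave 40.7% of those of Hand2-gated cells at P15.

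**Figure D3:**
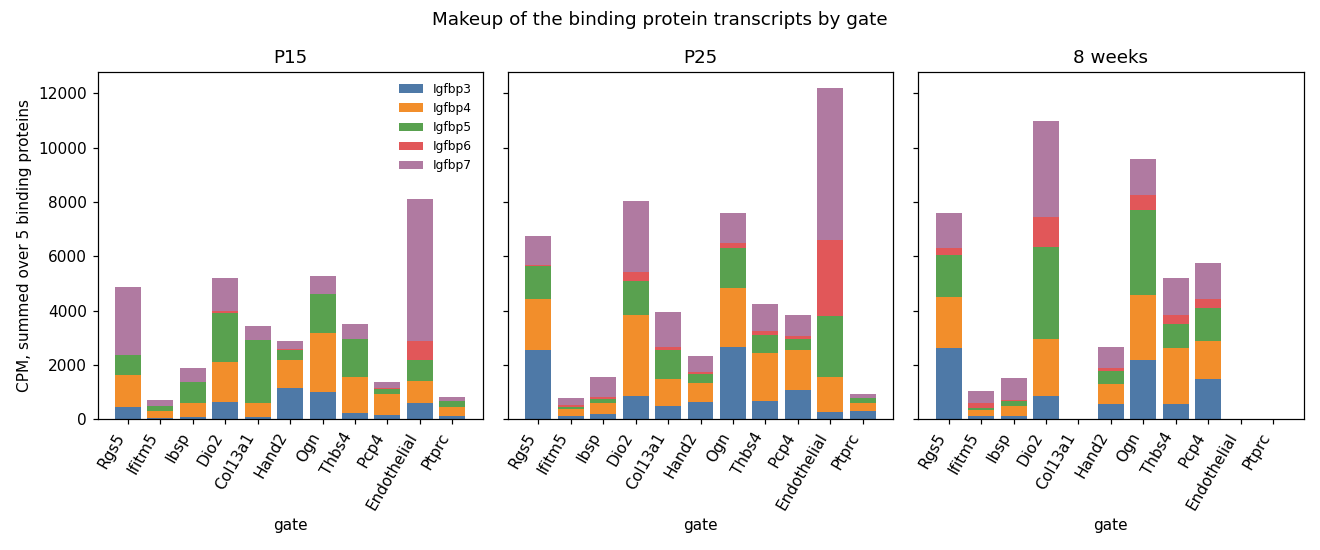
Level of 5 binding proteins (CPM, bars stacked from 0) by gate in the P15, P25 and 8-week libraries. Groups of under 20 cells are left out. Ifitm5-gated cells have the lowest bars of the mesenchymal gates, from 697 to 1052 CPM, and Dio2-gated and Ogn-gated cells the highest at P25 and 8 weeks.

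Stc1 (ENSMUSG00000014813, chromosome 14, 69029238 to 69041804, plus strand), the inhibitor of the pappalysins, was concentrated in Dio2-gated cells. Its level there was 264 CPM in the P15 library (250.01 to 279), 401 CPM in that of P25 (389 to 414) and 123 CPM in that of 8 weeks (103 to 146). Every other mesenchymal gate held between 0 and 44.4 CPM, so the groups did not overlap. Dio2-gated cells were 3.63%, 6.20% and 1.80% of the mesenchymal cells and held 73.1%, 70.3% and 39.1% of the mesenchymal Stc1 UMIs. Stc1 rose in Dio2-gated cells by 5.20 ± 0.60 (SE, log2, adjusted p = 3.0e-06), and it passed under all 19 alternatives, with adjusted p from 9.7e-09 to 0.032. Thinned to 3000 UMIs, 14.8% (11.4% to 18.8%), 42.2% (37.9% to 46.7%) and 15.6% (8.77% to 24.7%) of Dio2-gated cells held a Stc1 UMI. In Ptprc-gated cells the shares were 0.634% at P15 and 0.455% at P25. Median depths were 11200 and 16487.5 UMIs in Dio2-gated cells and 11059 and 16009 in Ptprc-gated cells. Endothelial cells had 45.2 CPM at P15 and 112 CPM at P25. In Hand2-gated and Ogn-gated cells Stc1 gave -2.77 and -2.68 (adjusted p = 0.16 for each), which passed with library as a block (0.030 and 0.031). Stc1 and Pappa were found together in 1.30%, 3.98% and 1.11% of the thinned Dio2-gated cells, where Pappa was found in 1.56%, 7.57% and 7.78%.

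Pappa2 (ENSMUSG00000073530, chromosome 1, 158711727 to 158980490, minus strand) was concentrated in Col13a1-gated cells of the P15 library, at 277 CPM (266 to 288). Thbs4-gated cells followed with 121 CPM (115 to 127), and the other gates held from 3.82 to 27.6 CPM. At P25 no gate exceeded 8.53 CPM, and at 8 weeks none with 20 cells or more exceeded 9.89 CPM, the level of Hand2-gated cells. Only the P25 gene list also held 1600012P17Rik, a gene that overlaps Pappa2 on the same strand. Its part in the P25 level was not tested. Pappa2 rose in Col13a1-gated cells by 4.41 ± 0.77 (SE, log2, adjusted p = 0.0033), from 2 libraries. Of these, P25 stood at 7.72 CPM (3.33 to 15.2) with 8 UMIs in 55 cells. Pappa2 and Col13a1 were paired in the name of a cell class before these comparisons. The rise is therefore not independent of that choice. The call was lost without P15 (1.84, adjusted p = 0.38), without P25 (4.92, adjusted p = 0.089) and without 8 weeks (4.08, adjusted p = 0.058). Without P15 or P25 the gate had 1 library, which is assumed to vary like the other groups. With library as a block Pappa2 also rose in Thbs4-gated cells (1.87, adjusted p = 0.028) and Hand2-gated cells (1.27, adjusted p = 0.049), and it fell by 2.83 in Ifitm5-gated cells (adjusted p = 0.0023) and by 2.49 in Pcp4-gated cells (adjusted p = 0.012). Thinned to 3000 UMIs, 45.1% (40.4% to 49.9%) of the Col13a1-gated cells at P15 held a Pappa2 UMI, against 1.65% of Ptprc-gated cells (median depths of 16951 and 11059 UMIs). In 40.9% of these Col13a1-gated cells Pappa2 and its substrate Igfbp5 were found together, while Igfbp5 was found in 88.0% of them. Whether the 2 genes were found together more often than these shares give was not tested. Col13a1-gated and Thbs4-gated cells were 3.97% and 7.26% of the mesenchymal cells at P15 and held 39.7% and 26.6% of the Pappa2 UMIs.

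Pappa (ENSMUSG00000028370, chromosome 4, 65124174 to 65357509, plus strand) was low in every group, with no gate above 51.5 CPM. In Hand2-gated cells it was 51.5 CPM (45.4 to 58.2) in the P15 library, and later 22.8 CPM (19.7 to 26.1) and 25.2 CPM (21.0 to 30.1). Ibsp-gated cells stood at 11.2, 19.7 and 30.1 CPM and Dio2-gated cells at 8.48, 35.9 and 27.6 CPM. Ifitm5-gated cells held 2.58, 6.93 and 4.58 CPM, below all other gates. Pappa fell by 1.60 ± 0.49 in Ifitm5-gated cells (SE, log2, adjusted p = 0.028), and its value in Hand2-gated cells, 1.14 ± 0.38, missed the threshold (adjusted p = 0.073, or 0.043 with library as a block). The Ifitm5 call was lost without the P25 library (adjusted p = 0.13) and without the 8-week library (0.17). Thinned shares were 12.7%, 5.26% and 7.44% of Hand2-gated cells, against 0.760% and 0.455% of Ptprc-gated cells at P15 and P25 (medians of 18558.5 and 16453 UMIs in Hand2-gated cells). Ibsp-gated cells were 17.0% of the mesenchymal cells at 8 weeks and held 31.1% of the Pappa UMIs there.

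The study marks its cementoblast classes by Ibsp and by Ifitm5, and both gates stood at the low end of the ligands and of most binding proteins. By the order of gates, a cell that passed both did not go to Ibsp. Of 1237, 1496 and 1063 cells that passed Ibsp, 854, 1165 and 865 were assigned to it. Ifitm5-gated cells held 13940, 9687 and 16893 CPM of Ibsp, so the 2 gates were not separate in this gene. Compared directly, none of the 10 members passed, against 4.12% of all genes. At an unadjusted p under 0.05, 4 members passed, with 2182 of the 13562 genes, and DESeq2 called 1 member, with 940 genes in all. The values nearest the threshold were those of Pappa, 1.82 ± 0.59 higher in Ibsp-gated cells (SE, log2, adjusted p = 0.086), and Igf1, 0.98 ± 0.39 higher (adjusted p = 0.19). Pappa levels did not overlap between these gates, at 11.2 to 30.1 CPM against 2.58 to 6.93 CPM, and neither did those of Igf1, Igf2, Igfbp4 and Igfbp7. The share of all genes without overlap was not computed, so this list has no background. In cells that passed exactly 1 gate, 3 members passed, with 1438 genes in all.

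The Rgs5 gate differed in its own markers between the libraries. Rgs5 itself stood at 6766 CPM at P15 and at 426 and 321 CPM later, and the pericyte gene Notch3 at 456, 43.0 and 8.18 CPM. The calls in this gate were Igf1 (1.40 ± 0.25, SE, log2, adjusted p = 0.0016), Igf2 (1.21 ± 0.26, adjusted p = 0.0075) and Igfbp3 (1.93 ± 0.47, adjusted p = 0.022). In cells that passed exactly 1 gate, the 629 genes called in the Rgs5 gate included 0 members. The markers fixed for the Ogn gate summed to 1024, 3657 and 6004 CPM in Rgs5-gated cells, against 2048, 4344 and 4924 CPM in Ogn-gated cells. The part of these markers in the calls was not tested. A stricter gate of at least 20 Rgs5 UMIs per 10000 left 182 cells at P15, 4 at P25 and none at 8 weeks. The 182 cells held 3364 CPM of Igfbp7 (3284 to 3445), 899 CPM of Igf1, 452 CPM of Igfbp3 and 164 CPM of Igf2. The other 76 Rgs5-gated cells of that library held 1099 CPM of Igfbp7, 1346 CPM of Igf1, 494 CPM of Igfbp3 and 281 CPM of Igf2. A fit with the stricter gate therefore had the P15 library alone in this gate, with its spread assumed like that of the other groups, so the stricter gate and the loss of the later libraries cannot be told apart. None of the members passed in it. Igf1 stood at 0.98 (adjusted p = 0.23), and Igf2 and Igfbp3 at -0.18 and -0.31 on the log2 scale.

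Between time points, levels could be described but not tested. Over all mesenchymal cells and genes of at least 20 CPM, Igfbp3, Igfbp6 and Stc1 were past 2-fold higher and Pappa2 lower at P25 than at P15, 4 of the 9 members at this level, where 5.6% of genes differed past 2-fold. From P25 to 8 weeks Igfbp5 and Igfbp6 were higher and Stc1 lower, 3 of 8 members (3.99% of genes). Over the whole span Igfbp3, Igfbp6 and Igfbp7 were higher and Pappa2 lower, which makes 4 of the 8 members at this level (Pappa and Stc1 lay under it), against 5.71% of genes. Igfbp6 went from 25.2 to 156 and 358 CPM, a ratio of 14.2 between 8 weeks and P15. Igfbp3 went from 432 to 1155 and 1140 CPM and Igfbp7 from 522 to 981 and 1149 CPM. Pappa2 went from 36.2 to 3.06 and 3.54 CPM, a ratio of 0.0977 between 8 weeks and P15. The limit of the overlapping gene, listed at P25 only, applies to its P25 value. Of the ligands, Igf1 stood at 589, 518 and 560 CPM and Igf2 at 248, 246 and 243 CPM. Stc1 was at 11.3, 42.3 and 7.44 CPM, while the share of Dio2-gated cells was 3.63%, 6.20% and 1.80%.

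Within gates the ligands had ratios on both sides of 1. Igf1 was 3.56-fold higher at 8 weeks than at P15 in Pcp4-gated cells (160 to 570 CPM) and 1.65-fold higher in Dio2-gated cells, but its ratio was 0.347 in Hand2-gated and 0.387 in Ibsp-gated cells. Igf2 had ratios from 0.270 in Hand2-gated cells to 1.99 in Pcp4-gated cells. Igfbp6 was higher in each of the 8 gates that could be compared, by 5.59-fold in Hand2-gated to 28.3-fold in Thbs4-gated cells, and 0.279% of genes were higher past 2-fold in each of these gates. Pappa2 was lower past 2-fold in each, with 0 UMIs in Pcp4-gated cells at 8 weeks (up to 1.27 CPM by 3 counts) and a ratio of 0.0268 in Thbs4-gated cells. For this 0.679% of genes was the background. Pappa2 lay under 20 CPM in both libraries in some gates, with P15 levels of 4.21 CPM (Ifitm5), 13.0 (Ibsp), 10.7 (Dio2) and 3.82 (Pcp4). The counting error of its log2 ratio was 1.46 in Ifitm5-gated, 0.75 in Dio2-gated and 0.74 in Rgs5-gated cells, so the size of the fall there is uncertain. Igfbp3 was higher in 7 of the 8 gates, by up to 9.74-fold in Pcp4-gated cells, with Hand2-gated cells the exception (0.479). Igfbp7 was higher in 7, with Rgs5-gated cells the exception (0.512), and Igfbp5 ranged from 0.263 in Ibsp-gated to 6.12 in Pcp4-gated cells. In Pcp4-gated cells the markers fixed for the Ogn gate summed to 513, 1715 and 3551 CPM in the same libraries, while 4, 2 and 2 of 4 of its own markers were past 2-fold, and their part in these ratios was not tested. Hand2 itself stood at 12.7, 132 and 209 CPM in Ibsp-gated cells, and Ibsp at 236, 1408 and 1846 CPM in Hand2-gated cells. The cells of these 2 gates thus differed between the libraries, and the part of this in their ratios was not tested. Summed dissociation stress genes stood at 7755, 8594 and 12598 CPM over the mesenchyme in the same order, and their part was not tested.

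**Figure D4:**
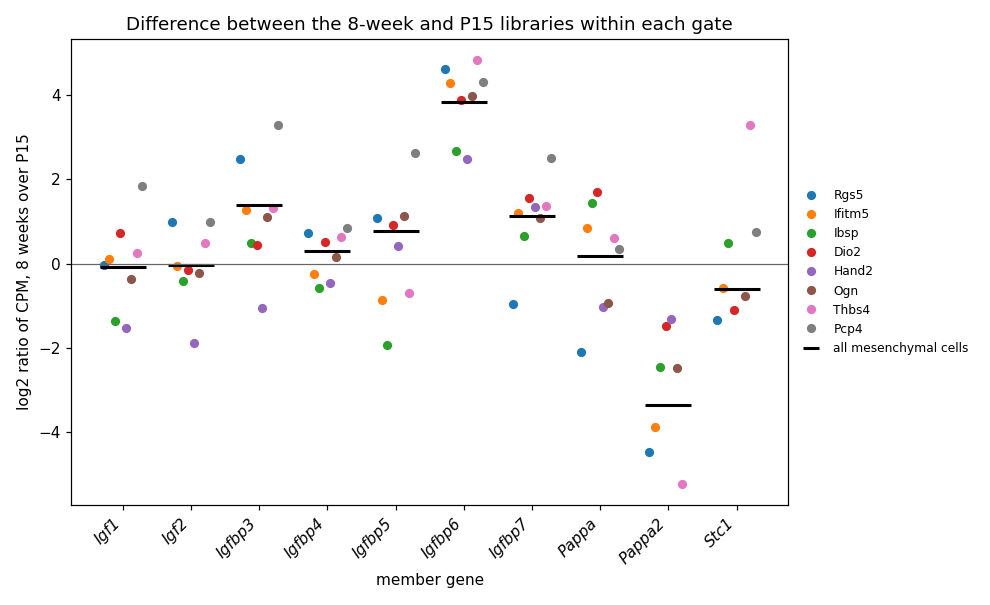
Log2 ratio of CPM between the 8-week and P15 libraries for each member gene within 8 gates (colored points) and over all mesenchymal cells (black bars), 1 library per time point. All 8 points of Igfbp6 lie above 0 and all 7 points of Pappa2 below 0, while those of Igf1 lie on both sides of it.

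Other genes of the axis were taken from a list of 19, of which 18 were shared by the libraries and 13 were abundant enough to test. Igf1r, the receptor for both ligands, stood between 46.3 and 59.6 CPM in Ifitm5-gated cells and between 88.7 and 142 CPM over all mesenchymal cells. In Dio2-gated cells 3 rose and 1 fell (20.7% of all genes in either direction). The largest were Htra1, a serine protease that can cut binding proteins (3.67 ± 0.39, SE, log2, adjusted p = 1.3e-06), at 1380, 3562 and 1849 CPM, and Igfbp2 (3.59 ± 0.64, adjusted p = 0.00031), at 199.7, 660.0 and 599 CPM. Insr rose by 0.59 and Grb10, an adaptor that dampens the receptor, fell by 0.96. In Ifitm5-gated cells 1 rose and 4 fell (17% of all genes): Irs1, a docking protein of the receptor, rose by 0.86, while Igf1r, Grb10, Ghr (the growth hormone receptor) and Htra1 fell by 0.95, 0.67, 0.87 and 2.32. Grb10 rose by 1.07 in Hand2-gated cells and Igf2r fell by 0.72 in Pcp4-gated cells. Irs1 fell by 0.87 in Ibsp-gated against Ifitm5-gated cells. The study names Htra1 among the markers of a periapical class from these libraries. Igfbp1, Igfbpl1 and Igf2bp1 did not exceed 1.84 CPM in any group, and Igfals, which forms the large ligand complex in plasma, did not exceed 2.22 CPM. Prg2, another pappalysin inhibitor, reached 9.66 CPM in cells of no gate at P15, and Stc2, the other stanniocalcin, 16.1 CPM in Pcp4-gated cells at 8 weeks.

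Across the 29 mesenchymal sums, after the mean of each library was taken off, log2(CPM + 5) of the ligands and of Igfbp3 and Igfbp4 ran closely together, with Pearson correlations from 0.86 (Igfbp3 and Igfbp4) to 0.92 (Igf1 and Igfbp4). These points share libraries, gates and depth, and genes are not independent, so they are given as a description. Among 8546 genes, the patterns nearest to Igf1 were those of C1ra (0.96), Cd302 (0.96) and C1rb (0.95), of which C1ra and C1rb are close copies whose reads may be split. Nearest to Igf2 were Gaa (0.97), Tapbp (0.95) and Shisa2 (0.93), to Igfbp3 Angpt1 (0.94), Gas6 (0.92) and Gaa (0.92), and to Igfbp4 Myof (0.96), C1ra (0.93) and Nid1 (0.93). Igfbp5 was nearest to Flnc (0.90), Fth1 (0.89) and Sat1 (0.89), Igfbp6 to Ntn4 (0.87), Man1a (0.85) and Gdf10 (0.84), and Igfbp7 to Cebpb (0.92), Lrrc32 (0.92) and Mapk3 (0.91). The nearest to Stc1 were Shc4 (0.94), Gpr176 (0.94) and Sod3 (0.92). The protease genes had looser neighbours, Nt5dc3 (0.84), Plxnc1 (0.83) and Col16a1 (0.82) for Pappa2 and Msx1 (0.79), Grk5 (0.78) and Piezo2 (0.78) for Pappa.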

How the data were processed

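Cells were sorted for the mCherry reporter from pooled mandibular molars and sequenced with the 10x 3′ v3.1 kit. The authors deposited raw UMI counts per gene and cell, made with Cell Ranger on mm10, which the labels give as version 6.1.2 while the P25 file header names 6.0.1. No value was normalized before deposit. Genes were joined by identifier over the libraries (21446 shared, of 22056 to 32293 listed).

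Cells were assigned to gates as described above, with no further cell filter or removal of doublets, and UMIs were summed per library and gate of at least 20 cells. The sums were fitted with edgeR 4.0.16 (R 4.3.3; TMM factors, filterByExpr, robust quasi-likelihood test, gate as the only term), calling an adjusted p under 0.05. The contrast fit was also run on simulated sums, drawn independently, with genes changed in the Ogn gate only. No effect of library was simulated, so this run could not check p-values where sums of a library deviate together. Shares were taken after thinning cells to 3000 UMIs, leaving out shallower cells. Members and gene lists were chosen with earlier results of these data known. The genes named are the members, the list of 19, the gate genes and the 3 nearest genes of each member. Libraries number the sums of all gates, and sums of the same library deviated together (lowest pairwise correlations of 0.189, 0.329 and 0.213 in age order), so library was also fitted as a replicate block. Alternatives covered gate thresholds and order, cell filters, doublets (Scrublet, scanpy 1.11.5), gene joining, normalization, the low-count filter, DESeq2 1.42.0, each library left out and the comparison group.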

Additional observations from a re-analysis of the deposited data

Results flagged for a closer look

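Igfbp3 lay on different sides of the other mesenchymal cells in Hand2-gated cells at different times. At P15 it was 2.87 times the level of the other mesenchymal cells (1170 against 408 CPM), and at 8 weeks 0.462 times (561 against 1212 CPM). Stc1 did so in Rgs5-gated cells, with 2.56 times at P15 (28.0 against 10.9 CPM) and 0.177 times at P25 (7.62 against 43.0 CPM). In Thbs4-gated cells Stc1 was at 0.183 times at P15 (2.21 against 12.1 CPM) and 3.34 times at 8 weeks (21.4 against 6.40 CPM). With 1 library per time point, none of these differences between times was tested.

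H19, the noncoding RNA beside Igf2, was listed in the P25 file only and entered no comparison. It stood at 200.5 CPM in Ogn-gated cells (95% Poisson interval 196 to 205), 137 CPM in Rgs5-gated cells, 93.0 CPM in Thbs4-gated cells and 76.8 CPM in Pcp4-gated cells. Ibsp-gated cells held 21.9 CPM and Ifitm5-gated cells 8.83 CPM, against 18.3 CPM in Ptprc-gated cells.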

How the results depend on the processing

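The 24 calls of members in gates became 39 with library as a replicate block, with all 24 of them kept, and 13 against the sum of all other mesenchymal cells. Leaving out 1 library gave 3 (without P25) to 39 (without P15), and 10 without 8 weeks. Calls over all genes fell too without P25 or without 8 weeks, as given above for the Ogn, Ifitm5 and Dio2 gates. The calls kept without P25 were Igf1 and Igfbp4 in the Ifitm5 gate and Stc1 in the Dio2 gate. Other alternatives gave 22 to 28. Of the 24 pairs, 18 were kept in cells of exactly 1 gate and 20 with the order of gates reversed. With the stricter Rgs5 gate, chosen after seeing the data, Igf2 (-0.18), Igfbp3 (-0.31) and Igfbp4 (-0.15) reversed in that gate, which then held the P15 library alone. Between Ibsp-gated and Ifitm5-gated cells, the 0 members called became 3 in cells of exactly 1 gate, 2 with reversed order, 1 with total UMIs, 1 with DESeq2 and 0 to 2 with 1 library left out. Over all genes, the 559 calls became 1438, 985, 637 and 940 in the same order, and 2 to 1116 with 1 library left out. The 4 time differences were 4 in each alternative. The share of Dio2-gated cells at P25 with a Stc1 UMI, 42.2%, was 63.7% without thinning and 49.4% at 5000 UMIs. The block changed the number of all genes called by over 1.5 times in every contrast, from 447 to 971 in the Rgs5 gate, 2312 to 4148 (Ifitm5), 824 to 2113 (Ibsp), 2806 to 4374 (Dio2), 241 to 830 (Col13a1), 992 to 2730 (Hand2), 671 to 2030 (Ogn), 7 to 70 (Thbs4), 1154 to 2956 (Pcp4) and 559 to 1754 (Ibsp against Ifitm5). The causes of these shifts were not tested. Scaling by total UMIs moved the median of all genes to -0.25 in the Ifitm5 gate, 0.11 in the Dio2 gate and 0.20 between the Ibsp and Ifitm5 gates.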
